A study of Mus musculus with 4 samples.

Results

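Of the 16375 genes listed, each given as FPKM (the fragments of a gene divided by its length and by the library total), 10 were chosen by symbol as selenoproteins: Selenom, Selenop, Selenow, Selenok, Selenos, Selenof, Gpx1, Gpx4, Txnrd1 and Msrb1. The set was built around Selenom, whose FPKM was higher with butyrate in WT macrophages, so that the other 9 could be read for the same difference. The Selenom values that led to the choice are given as a description. All 10 were listed, and their FPKM averaged over the libraries was at least 1, the minimum used for counts and ranks, which 6809 genes reached.

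The RNA came from bone marrow-derived macrophages (BMDMs), which are bone marrow cells grown with macrophage colony-stimulating factor. WT and LNCKO macrophages were each taken without butyrate (control) and with it, which gave 4 groups with 1 library each. WT cells carried the intact gene, and LNCKO cells came from mice on a C57BL/6J background that lack the long noncoding RNA lncLy6c. Butyrate, a short-chain fatty acid made by gut bacteria, was given at 500 µM for 24 h, and control cells received none. The deletion was made in zygotes and is not limited to macrophages. The study's methods name C57BL/6 mice of both sexes within a range of ages, and how many mice, of which age and sex, gave each library is not given in the sources used here.

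Selenoproteins contain selenocysteine, an amino acid like cysteine with selenium in place of sulphur. The codon for selenocysteine is UGA, which otherwise ends translation. It is read as selenocysteine where the mRNA carries a hairpin, the SECIS element, in its 3′ untranslated region, which is bound by Secisbp2, while the elongation factor Eefsec brings the selenocysteine tRNA. Many of these proteins are redox enzymes that remove peroxides or reduce oxidised proteins, and several sit in the endoplasmic reticulum (ER), among them Selenom, Selenof, Selenok and Selenos. In macrophages they are known for limiting damage from the oxidants that these cells make.

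The codon that defines the family is shown for 6 members, among which its place in the reading frame differs. That place did not follow the division into enzymes and ER proteins. The bases were read from the GENCODE M21 transcripts of GRCm38, with up to 12 coding bases on each side of the codon. Capitals mark the in-frame TGA, and a run that is shorter ends with the stop codon.
Selenom: acctgtggaggaTGAcagttgaatcgc
Selenow: tattgtggagctTGAggctataagccc
Gpx1: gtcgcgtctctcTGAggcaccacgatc
Selenos: tcatctggcggcTGAaactaa
Selenok: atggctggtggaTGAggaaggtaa
Txnrd1: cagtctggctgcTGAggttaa

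The Selenom TGA lies at chr11:3516273-3516275 on the + strand and is codon 48 of 145. That of Selenow is codon 13 of 88 (chr7:15920464-15920466, − strand), and that of Gpx1 is codon 47 of 201 (chr9:108339451-108339453, + strand). In Selenos, Selenok and Txnrd1 it stands near the end of the reading frame, at codon 189 of 190, codon 92 of 94 and codon 498 of 499. A cysteine codon, tgt, stood 3 codons before the TGA in 2 of the 10 members, Selenom and Selenow, and in 6 of the 24 mouse selenoproteins examined. Selenop had 10 annotated selenocysteine codons, between codon 59 and codon 377 of 380, and the other 9 members had 1 each.

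The libraries held between 53363944 and 65521713 fragments, a total that was recovered from the values themselves. With these totals and the length of the whole gene, introns included, 98.5% of the genes above 0 in a library gave a whole number of fragments, against 6.93% to 7.15% with the exon length. All 10 members gave whole fragments in the 4 libraries. The 10 macrophage markers examined were all expressed, with a summed FPKM of 1476 to 3495 that came mostly from Lyz2, and so were the 10 markers of neutrophils and their precursors (2202 to 3109). Summed FPKM were lower for B cells (164 to 216), mast cells and basophils (34.7 to 71.6), erythroid cells (5.99 to 64.6), T and NK cells (14.4 to 19.2), dendritic cells (6.85 to 9.39) and stromal cells (3.03 to 11.1), and no marker listed was at 0 in all libraries. As these FPKM are divided by the length of the whole gene, the sums depend on intron length and do not rank the cell types. The B cell marker Pax5, for example, had an FPKM of 0.961 in WT control from 10067 fragments. No gene was listed as lncLy6c, so the knockout itself was not checked here. Ddx3y, a gene of the Y chromosome, had 65 and 49 fragments in the WT control and WT butyrate libraries and 6128 and 7764 in the LNCKO libraries, so that genotype and sex of the mice cannot be told apart. With 1 library per group no difference between groups could be tested. The intervals given are exact 95% intervals for the fragments counted. They cover counting error and not the spread between mice or cultures.

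Selenom, an ER protein with a thioredoxin-like fold, was the member with the largest difference between libraries. The gene (ENSMUSG00000075702) lies at chr11:3514684-3517351 on the + strand of GRCm38. Its FPKM was 3.89 without and 14.8 with butyrate in WT, and 5.26 and 5.11 in LNCKO. These values rested on 586, 2339, 749 and 894 fragments. The WT butyrate library stood above the other 3, which lay between 3.89 and 5.26. The FPKM with butyrate was 3.80 times that of control in WT (interval 3.47 to 4.17) and 0.972 times in LNCKO (0.881 to 1.07), an interval that includes no difference. On the log2(FPKM + 1) scale, which understates changes of low genes, these differences were 1.69 and -0.03. Among the 6809 genes, the WT difference had rank 3 from the highest and the LNCKO difference rank 4104. Without butyrate, Selenom was 1.35 times as high in LNCKO as in WT (1.21 to 1.51), and with butyrate 0.345 times as high (0.319 to 0.373).

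**Figure D1:**
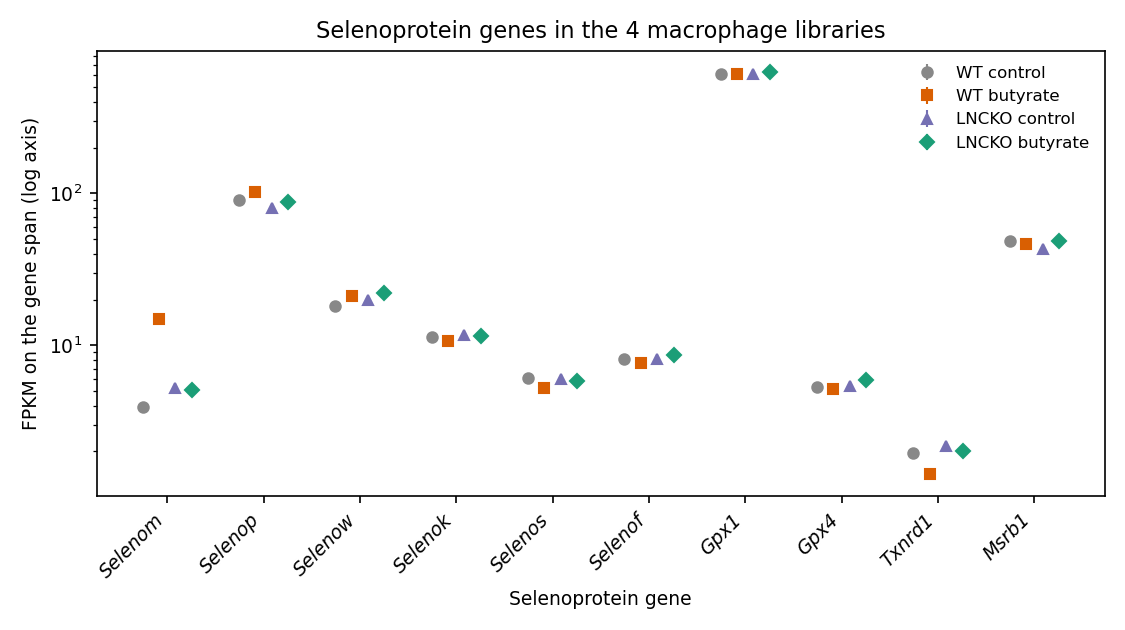
FPKM on the gene span (log axis) of each of the 10 members in the 4 libraries, 1 point per library, with exact 95% intervals for counting error only, most of them smaller than the points. For Selenom the WT butyrate point, at 14.8, lies apart from the other 3, at 3.89 to 5.26, while the points of the other 9 genes lie close together, with Txnrd1 at 1.43 in WT butyrate and 1.97 to 2.18 in the rest.

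The other 9 members did not show a difference of this size with butyrate in WT. The largest difference upwards among them was that of Selenow, at 0.20 on the log2(FPKM + 1) scale, and the largest downwards was that of Txnrd1, at -0.29. Their median was -0.06, beside -0.04 over all 6809 genes. None of the 9 was past 1.2-fold higher, where 4.35% of all genes were, and 1 of the 9 was past 1.2-fold lower, where 5.36% were. None was past 2-fold in either direction, as were 0.264% (higher) and 0.0734% (lower) of all genes. The all-gene counts at 1.2-fold were 296 higher and 365 lower, and they changed to 410 and 250 when libraries were scaled by their median ratio and to 880 and 2016 when FPKM were rescaled to the same sum.

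**Figure D2:**
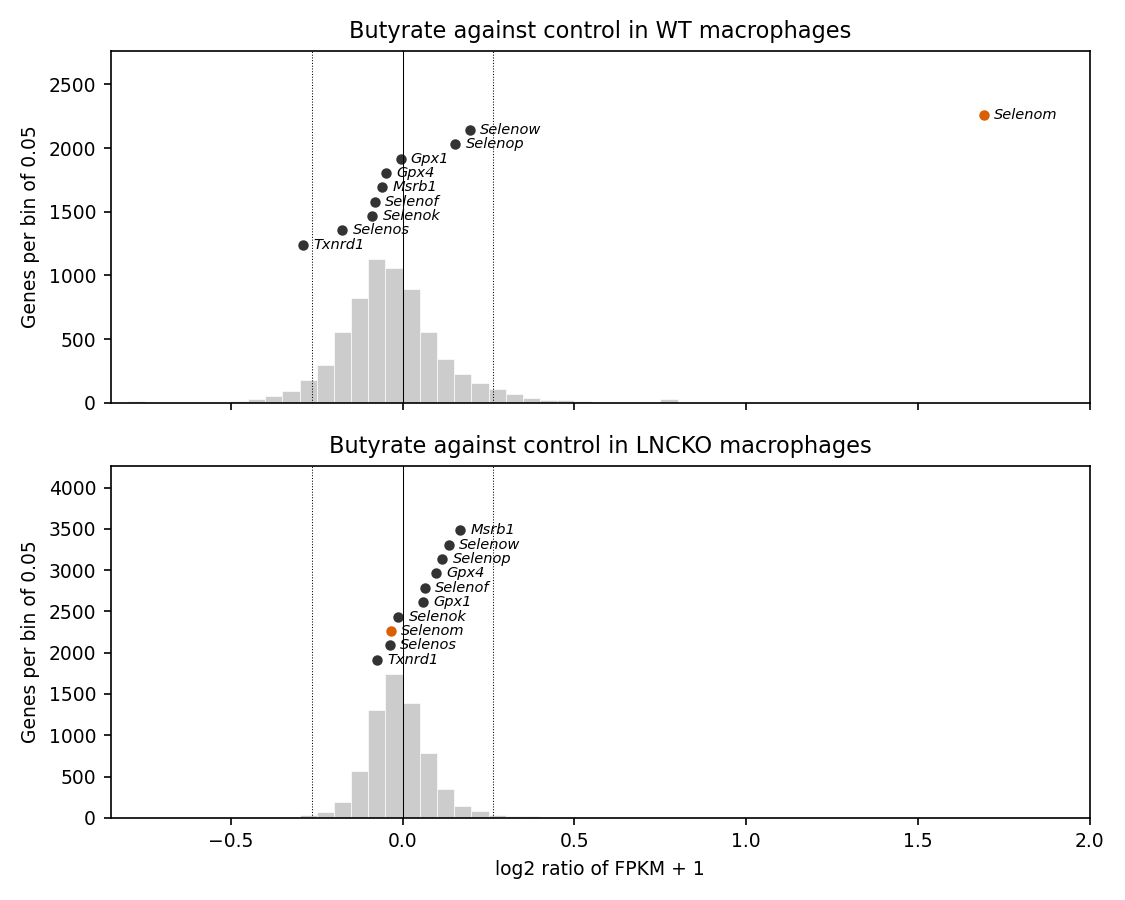
Number of genes (6809 with an FPKM averaging at least 1) by their butyrate difference on the log2(FPKM + 1) scale, in WT and in LNCKO, with a point for each member whose height has no meaning and dotted lines at 1.2-fold. The outermost bins, near 0.8 in size, also hold all genes beyond them. In WT the marks of 9 members lie between -0.29 and 0.20, with Txnrd1 past the lower dotted line, and Selenom lies at 1.69. In LNCKO all 10 lie between -0.07 and 0.17.

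Selenop, which carries selenium out of cells and through plasma, and Selenow, a small cytosolic protein with a thioredoxin-like fold, were the other members with a higher FPKM under butyrate in WT. Selenop (chr15:3268547-3280508) had an FPKM of 91.1 in WT control, 101 with butyrate, and 80.3 and 87.1 in the matching LNCKO libraries. Selenow (chr7:15917208-15922402) had 18.2, 21.02, 20.0 and 22.0 in the same order. Both were higher with butyrate in both genotypes, and by less than the smaller threshold of 1.2-fold. For Selenop the ratio was 1.11 in WT (1.10 to 1.12) and 1.08 in LNCKO (1.07 to 1.10). For Selenow it was 1.15 in WT (1.11 to 1.196) and 1.10 in LNCKO (1.06 to 1.14). Selenop was the only member lower in both LNCKO libraries than in the WT library of the same treatment, at 0.882 times without butyrate and 0.859 times with it. Of its 2842 exon bases, 439 are shared with Ccdc152 on the opposite strand, and whether the counting used strand is not stated.

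The ER members other than Selenom had lower values in WT butyrate than in any other library. Selenok, an ER membrane protein that works with the palmitoyl transferase Zdhhc6, had an FPKM of 11.4 without and 10.7 with butyrate in WT, and 11.7 and 11.6 in LNCKO. Selenos, which takes part with Vcp and the Derlin proteins in moving misfolded proteins out of the ER, had 6.05, 5.24, 5.99 and 5.81. Selenof, a partner of the glycoprotein folding sensor Uggt1, had 8.14, 7.64, 8.17 and 8.59. All 3 were thus on the other side of control from Selenom in WT. With butyrate in WT the FPKM was 0.935 times that of control for Selenok (0.898 to 0.974), 0.866 times for Selenos (0.825 to 0.910) and 0.939 times for Selenof (0.916 to 0.962). In LNCKO the intervals of Selenok (0.953 to 1.03) and Selenos (0.925 to 1.02) included no difference, and that of Selenof lay above it (1.03 to 1.08). The annotation names 6 pseudogenes of Selenok, with which its reads could be shared.

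The peroxidases and reductases differed less than Selenom as well. Gpx1, the main cytosolic enzyme for hydrogen peroxide, was nearly level, with an FPKM of 611 in WT control, 608 with butyrate, and 608 and 634 in the matching LNCKO libraries. Gpx4, which reduces lipid hydroperoxides in membranes and so protects cells from ferroptosis, had 5.35, 5.14, 5.43 and 5.88. Msrb1, which repairs oxidised methionine in proteins such as actin, had 48.4, 46.4, 43.4 and 48.8. In WT the intervals of Gpx1 (0.983 to 1.01) and Gpx4 (0.912 to 1.01) included no difference with butyrate. Msrb1 showed the largest butyrate difference of the members in LNCKO, at 0.17 on the log2(FPKM + 1) scale (ratio between 1.10 and 1.15), and was 0.959 times control in WT (0.939 to 0.980).

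Txnrd1, the cytosolic enzyme that keeps thioredoxin reduced, differed most after Selenom and in the opposite direction. Its FPKM was 1.97 without and 1.43 with butyrate in WT, and 2.18 and 2.02 in LNCKO, from 7070, 5386, 7418 and 8447 fragments. WT butyrate was the lowest library, and the other 3 lay close together. The ratio with butyrate was 0.726 in WT (0.700 to 0.752) and 0.927 in LNCKO (0.899 to 0.957). It was the 1 member of the other 9 past 1.2-fold lower in WT, with rank 275 from the lowest among all genes. That count was 0 when libraries were scaled by their median ratio (-0.26 on the log2 scale).

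In LNCKO macrophages no member was past 1.2-fold with butyrate in either direction, where 1.57% of all genes were higher and 0.867% lower. None was past 2-fold, as were 0.103% (higher) and 0.0734% (lower) of all genes. The differences of the 10 lay between -0.07 (Txnrd1) and 0.17 (Msrb1) on the log2(FPKM + 1) scale. The median of the 9 without Selenom was 0.06, beside -0.01 over all genes. The all-gene counts of 107 higher and 59 lower at 1.2-fold changed to 491 and 572 when FPKM were rescaled to the same sum.

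The genotypes were then compared within each treatment. Without butyrate, Selenom was the 1 member past 1.2-fold higher in LNCKO, at 0.36 on the log2(FPKM + 1) scale, where 2.14% of all genes were higher and 1.64% lower. It was not past 2-fold, nor was any other member, as were 0.191% (higher) and 0.0881% (lower) of all genes. The other 9 lay between -0.18 (Selenop) and 0.13 (Selenow), with a median of 0.00 beside 0.01 over all genes. Under butyrate, Selenom was 1 of the 17 genes past 2-fold lower in LNCKO (0.25% of all genes), with rank 9 from the lowest at -1.37. No member was past 2-fold higher, as were 0.22% of all genes. Txnrd1 was the 1 member past 1.2-fold higher, at 0.32, where 6.18% of all genes were higher and 4.17% lower, and its FPKM was 1.42 times that of WT (1.37 to 1.47). The other members lay between -0.22 (Selenop) and 0.16 (Gpx4), and 8 of the 9 without Selenom were above 0, with a median of 0.11 beside 0.04 over all genes. The all-gene counts of 421 higher and 284 lower changed to 314 and 357 when libraries were scaled by their median ratio.

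The butyrate difference in WT less that in LNCKO was 1.73 for Selenom on the log2(FPKM + 1) scale, with rank 5 from the highest among 6809 genes. It was the 1 member past 2-fold in this measure, as were 0.22% (higher) and 0.117% (lower) of all genes. None of the other 9 was past 1.2-fold in this measure, where 5.39% of all genes were higher and 6.76% lower. They lay between -0.23 (Msrb1) and 0.06 (Selenow), with a median of -0.14 beside -0.03 over all genes. The all-gene counts of 367 and 460 changed to 446 and 368 with scaling by the median ratio. The measure joins all 4 libraries and shares its WT libraries with the WT comparison, so that the order of the members in these measures cannot be read as separate evidence. Whether the butyrate response differed between genotypes was not tested.

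The neutrophil markers differed between the libraries as well, in the direction of Selenom in some comparisons and not in others. In WT, 7 of the 10 were higher with butyrate, with a median of 0.23 on the log2(FPKM + 1) scale and 1.05 for Ly6g. Of the 10, 5 were past 1.2-fold higher (4.35% of all genes) and 2, Camp and Ngp, past 1.2-fold lower (5.36%). In LNCKO 2 of the 10 were higher with butyrate, the median was -0.06, and 1 was past 1.2-fold higher (1.57% of all genes) and 3 lower (0.867%). Without butyrate, where Selenom was higher in LNCKO than in WT, the neutrophil median was -0.20, with none past 1.2-fold higher and 3 lower (2.14% and 1.64% of all genes). Under butyrate, where Selenom was lower in LNCKO, it was -0.45, with 1 higher and 8 lower (6.18% and 4.17%). Of the 10 macrophage markers 7 were higher in WT (median 0.12) and 5 in LNCKO (median -0.03). The medians over all genes were -0.04 and -0.01. In WT 1 was past 1.2-fold higher, Lyz2 (0.54), and 1 lower, Cd14 (-0.56). In LNCKO none was past it higher, and Lyz2 (-0.89) and Cd14 (-0.32) were past it lower. Under butyrate 1 was past it higher in LNCKO than in WT and 3 lower, with Lyz2 at -1.72. None of the 7 B cell markers was higher with butyrate in WT, where 3 were past 1.2-fold lower. In LNCKO 4 were higher, with none past it. Under butyrate all 7 were higher in LNCKO than in WT, with 4 past it. There 5 of 5 mast cell and basophil markers (median 0.67) and 3 of 6 erythroid markers (1.27) were past it higher. Of 7 stromal markers 4 were past it lower, and of 8 T and NK markers 2 were past it higher and 1 lower. No dendritic marker was past it. With butyrate in LNCKO, 6 stromal, 3 erythroid and 1 mast cell or basophil marker were past it higher. Of the stromal markers 2 and of the erythroid markers 3 averaged an FPKM of at least 1. The shares of all genes at 1.2-fold, counted above that minimum, are those given for the neutrophil markers. The part of other cell types in the Selenom values was not tested. In RNA from whole cultures, fewer cells of a type and less RNA per cell cannot be told apart.

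The family was compared per exon length, as fragments per kilobase of exon per 1000000 fragments. Where the fragments lie in exons, FPKM divided by the gene span sets a gene with long introns too low beside others. Whether fragments in introns were counted is not stated, and these would set such a gene too high per exon length. On this scale Gpx1 was highest in each library (608 to 634), followed by Selenop (338 to 427), Msrb1 (212 to 238) and Selenow (129 to 155). The ranges of these 4 over the libraries did not overlap. Selenok (41.5 to 45.5), Selenos (34.6 to 39.9) and Selenof (36.0 to 40.4) came next among the members. The ranges of Selenos and Selenof overlapped, as did those of the selenoproteins Sephs2 and Gpx3 around them. Gpx4 (27.7 to 31.6) and Txnrd1 (12.8 to 19.6) were lower. Selenom had the lowest exon-length level of the 10 members in WT control, LNCKO control and LNCKO butyrate, at 7.02, 9.48 and 9.21, and stood above Txnrd1 in WT butyrate at 26.7.

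Among 22 selenoproteins listed, Selenom ranked 15 in these 3 libraries and 12 in WT butyrate. Of the exon-length level summed over them, Gpx1 made up 33.3% to 35.4%, Selenop 19.7% to 23.3% and Selenom 0.393% in WT control and 1.46% in WT butyrate. The highest library was 3.80 times the lowest for Selenom, 1.53 times for Txnrd1, 1.49 times for Selenon and 1.04 times for Gpx1.

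**Figure D3:**
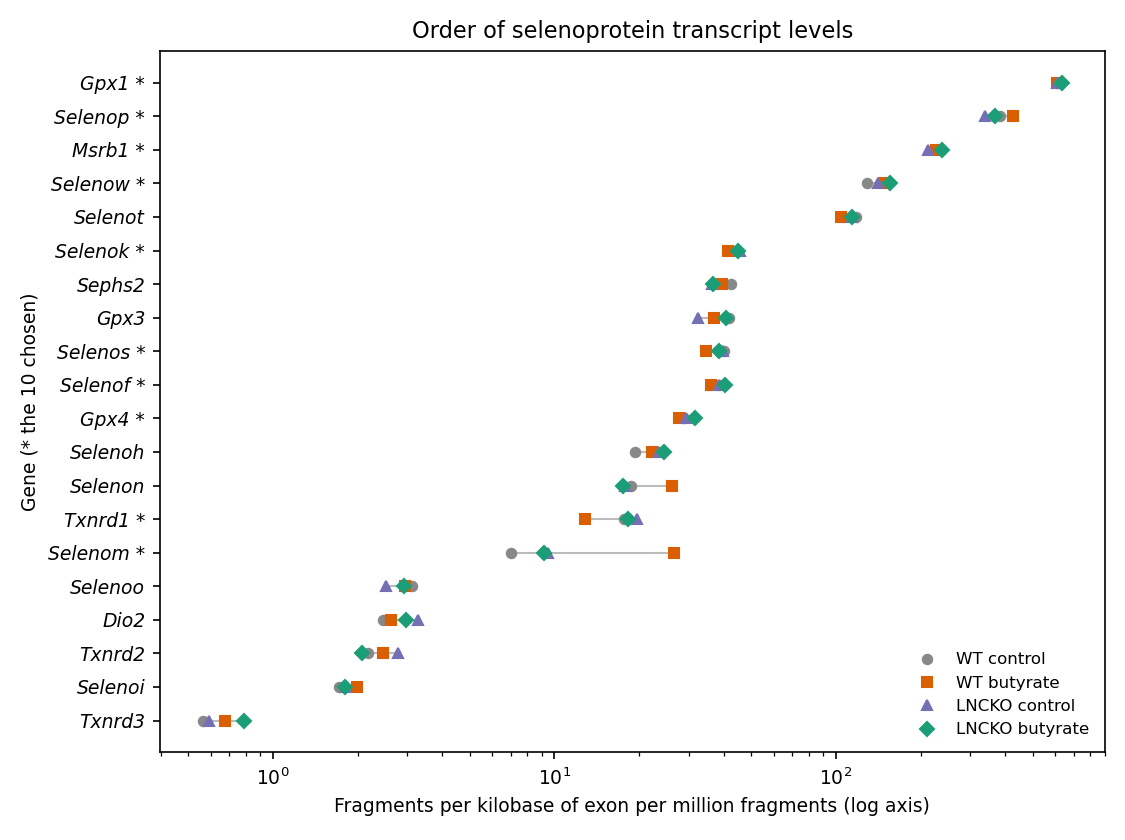
Level of each listed selenoprotein in the 4 libraries, in fragments per kilobase of exon per 1000000 fragments on a log axis, ordered by level in WT control, with an asterisk at the 10 members and without Dio1 and Dio3. The 6 highest genes kept their order in all libraries, with Gpx1 at 608 to 634, and Selenom lies at 7.02 to 9.48 in 3 libraries and at 26.7 in WT butyrate.

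The selenoproteins outside the 10 were read next. Of 14 further mouse selenoproteins, 12 were listed and 6 averaged an FPKM of at least 1. Of these 6, 1 was past 1.2-fold higher with butyrate in WT (4.35% of all genes), none was past it lower (5.36%), and none was past 2-fold (0.264% higher and 0.0734% lower). That gene was Selenon, an ER membrane protein that senses calcium and is known from inherited muscle disease (chr4:134537892-134552166). Its FPKM was 4.74 in WT control, 6.63 with butyrate, and 4.53 and 4.44 in the matching LNCKO libraries, and WT butyrate was again the library that stood above the rest. The ratio with butyrate was 1.40 in WT (1.34 to 1.46) and 0.980 in LNCKO (0.936 to 1.03), and under butyrate LNCKO was 0.669 times WT (0.643 to 0.697). The Selenon TGA, codon 428 of 557, does not stand at the end of the frame and has no cysteine codon 3 codons before it.
Selenon: gaccagtcctgcTGAggttccgggcgg

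Gpx3, a secreted peroxidase, had an FPKM of 9.56 without and 8.41 with butyrate in WT, and 7.38 and 9.29 in LNCKO, so that it was lower with butyrate in WT and higher in LNCKO. Of the 6, it alone was past 1.2-fold higher with butyrate in LNCKO (1.26 times, 1.204 to 1.32), as were 1.57% of all genes. It alone was also past 1.2-fold lower in LNCKO without butyrate (0.772 times WT, 0.737 to 0.809), as were 1.64% of all genes. Selenoh, a nucleolar protein, was the 1 of the 6 past 1.2-fold higher in LNCKO without butyrate (1.22 times WT, 1.131 to 1.32), as were 2.14% of all genes. Selenot, an ER protein of the same thioredoxin-like family as Selenow, was lower with butyrate in WT (0.884 times, 0.867 to 0.900). Among the 5 ER selenoproteins besides Selenom, which are Selenof, Selenok, Selenos, Selenon and Selenot, Selenon was thus higher with butyrate in WT and the other 4 were lower, with a median of -0.09 on the log2(FPKM + 1) scale. Dio3, a thyroid hormone deiodinase, had 0 fragments in each library, and the upper ends of its intervals lay between 0.0277 and 0.0341 FPKM. Dio1 had 0 in both WT libraries and 8 and 4 in LNCKO control and LNCKO butyrate.

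Of 9 genes tied to making, inserting or breaking down selenocysteine, 5 averaged an FPKM of at least 1. None of the 5 was past 1.2-fold with butyrate in WT, where 4.35% of all genes were higher and 5.36% lower, or in LNCKO, where 1.57% were higher and 0.867% lower. Their WT differences lay between -0.22 for Rpl30, a ribosomal protein that also binds the SECIS element, and 0.14 for Scly, which frees selenium from selenocysteine, with a median of -0.08. Secisbp2 was at an FPKM of 1.03, 1.07, 1.01 and 0.978 in the order used above. Rpl30 was the 1 of the 5 past 1.2-fold higher in LNCKO than in WT under butyrate (1.23 times, 1.18 to 1.27), as were 6.18% of all genes. Of the receptors that take up Selenop, Lrp8 lay between 0.538 and 0.626 FPKM and did not give whole fragments, and Lrp2 had 2 fragments in 1 library.

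The partners of the ER members were slightly lower with butyrate in WT throughout, where most genes were lower too. Of 10 partners 9 averaged an FPKM of at least 1, and these 9 were below 0 on the log2(FPKM + 1) scale, from -0.19 for Derl2 to -0.06 for Uggt1, with a median of -0.09 and none past 1.2-fold (4.35% of all genes higher and 5.36% lower). In LNCKO 7 of the 9 were below 0, with a median of -0.02. Scaled by the median ratio, the 9 stayed below 0 in WT, from -0.15 (Derl2) to -0.03 (Uggt1). The median over all genes was -0.04 in WT (quartiles -0.12 and 0.04) and -0.01 in LNCKO, so that most genes were below 0 without this scaling.

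Of 18 thiol redox genes without selenocysteine, 12 averaged an FPKM of at least 1. Of these 12, 1 was past 1.2-fold lower with butyrate in WT (5.36% of all genes) and none was past it higher (4.35%). Their median was -0.02, beside -0.04 over all genes. That gene was Gclm, the regulatory subunit of the enzyme that starts glutathione synthesis, with an FPKM of 1.85 in WT control, 1.30 with butyrate, and 1.95 and 1.81 in the matching LNCKO libraries. WT butyrate was its lowest library, as for Txnrd1, and its ratio with butyrate was 0.701 in WT (0.660 to 0.743) and 0.928 in LNCKO (0.880 to 0.978). The catalytic subunit, Gclc, had a mean FPKM under 1 and a ratio of 0.670 in WT (0.627 to 0.715) and 0.986 in LNCKO (0.932 to 1.04). Between genotypes, the glutaredoxin Glrx was the 1 of the 12 past 1.2-fold higher in LNCKO without butyrate (1.23 times WT), as were 2.14% of all genes. Under butyrate 2 of the 12 were, the peroxiredoxin Prdx6 (1.26 times) and Gclm (1.39 times), beside 6.18% of all genes. None of the 12 was past 1.2-fold lower, where 1.64% of all genes were without butyrate and 4.17% with it.

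The genes around Selenom on chromosome 11 were read as well, since the choice of the members did not use them. Within 100 kb of its span 4 other genes were listed. Inpp5j, an inositol polyphosphate phosphatase on the opposite strand whose span lies 9.86 kb upstream (chr11:3494375-3504821), had an FPKM of 2.03 without and 5.93 with butyrate in WT, and 2.30 and 2.56 in LNCKO. As for Selenom, WT butyrate stood above the other 3 libraries. The ratio with butyrate was 2.92 in WT (2.73 to 3.12) and 1.11 in LNCKO (1.03 to 1.196). On the log2(FPKM + 1) scale the WT difference was 1.19, which made Inpp5j 1 of the 18 genes past 2-fold higher.

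Pla2g3, a secreted phospholipase on the same strand as Selenom (chr11:3488284-3499350), had few fragments, at 105 without and 318 with butyrate in WT and 135 and 116 in LNCKO. Its ratio with butyrate was 2.89 in WT (2.31 to 3.63) and 0.700 in LNCKO (0.541 to 0.904). Its span overlaps that of Inpp5j by 4976 bases and its exons by 401 bases on the opposite strand, so that reads of this pair may not be separable. Smtn, a cytoskeletal protein of smooth muscle whose gene ends 171 bases downstream of Selenom on the opposite strand (chr11:3517523-3540612), went the other way, at 0.667 times control in WT (0.592 to 0.752) and 1.01 times in LNCKO, at an FPKM under 1. Rnf185, an E3 ubiquitin ligase 62.3 kb upstream, was at 0.947 times control in WT and 0.922 times in LNCKO.

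**Figure D4:**
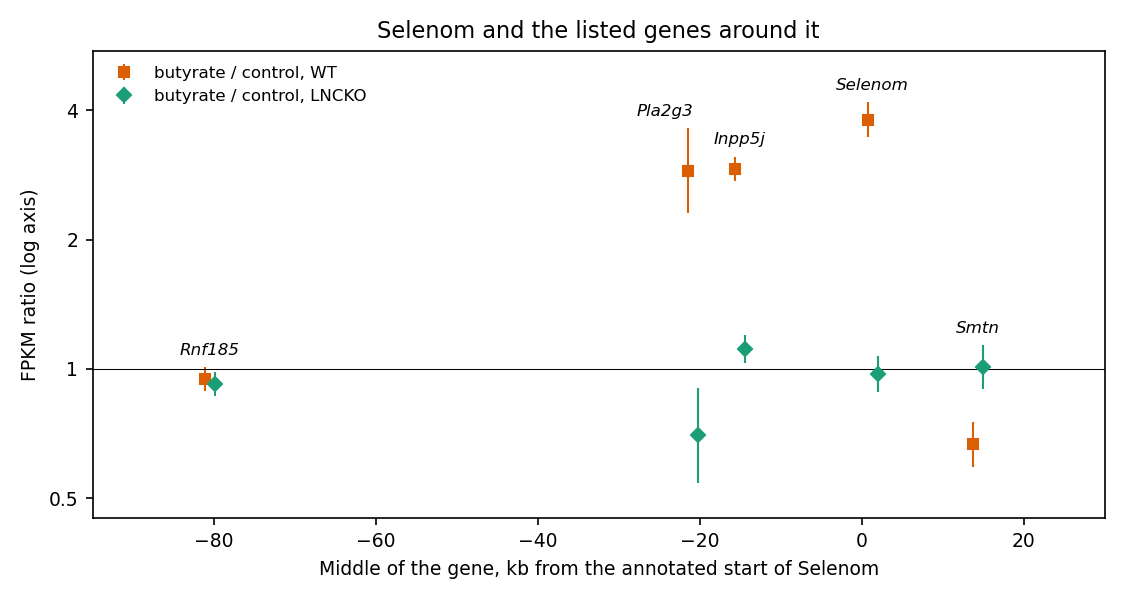
Ratio of FPKM with butyrate to control on a log axis, in WT (squares) and LNCKO (diamonds), for Selenom and the 4 listed genes within 100 kb, placed by the distance of the gene's middle from the Selenom start in kb, with exact 95% intervals for counting error only. In WT, Selenom (3.80), Inpp5j (2.92) and Pla2g3 (2.89) lie high, and Rnf185 (0.947) and Smtn (0.667) lie below 1.

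Among genes whose FPKM averaged at least 5, the 5 whose values over the 4 libraries were most like those of Selenom were Ccl5, Mmp8, Ly6g, Ccl12 and Saa3. The neighbour Inpp5j averaged less than this minimum and was not among the genes compared. Likeness was the Euclidean distance between log2(FPKM + 1) values centred on their mean over the 4 libraries, which ran from 0.289 for Ccl5 to 0.626 for Saa3. Ccl5, a chemokine, had an FPKM of 81.2 in WT control, 203 with butyrate, and 85.4 and 92.9 in the matching LNCKO libraries. Mmp8, a collagenase of neutrophil granules, had 60.9, 135, 60.8 and 60.6. In both, WT butyrate stood above 3 libraries that lay close together, which follows from the choice by likeness to Selenom. Ly6g, Ccl12 and Saa3 were higher with butyrate in LNCKO too, at 0.26, 0.30 and 0.28 on the log2(FPKM + 1) scale. Their WT differences were 1.05, 1.25 and 1.06. None of the 5 was a selenoprotein. The order rests on 4 libraries.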

How the data were processed

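RNA-seq of mouse BMDMs was analysed in 4 groups with 1 library each. The authors deposited FPKM per gene and no counts. The submitters' processing notes name STAR 2.5.0c, Picard 1.126, bedtools 2.17.0, HTSeq 0.6.0 and DESeq2 3.0. Labels and methods differ on extraction kit and sequencer. Library names of the LNCKO samples (NC, R3) do not spell the genotype, so groups rest on the sample titles. Library totals were searched as the numbers that turn FPKM on GENCODE M21 gene spans into whole fragments (within 0.02); 16342 genes matched. Changes were log2 ratios of FPKM + 1, counted past 1.2-fold and 2-fold among genes whose FPKM averaged at least 1. Intervals were exact (Clopper-Pearson for an FPKM, conditional binomial for a ratio), and paired reads carry no molecular identifiers. Named genes were the members, neighbours within 100 kb, the 5 genes most like Selenom and fixed lists (named where past 1.2-fold or extreme). The lists held selenoproteins, genes tied to selenocysteine, receptors, ER partners, thiol redox genes and markers. Other listed genes named in the text were chosen after their values were seen. Members and lists were chosen with earlier results of these data known. Alternatives were another pseudocount, filter, scaling or length. The search for library totals, the calls of changed genes and the ratio intervals were tested on simulated data with counting error only. Other steps were not. Python 3.11.15, numpy 2.4.6, pandas 2.3.3, scipy 1.17.1 and matplotlib 3.10.9 were used.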

Additional observations from a re-analysis of the deposited data

Results flagged for a closer look

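Gpx3, the secreted glutathione peroxidase, stood out because its FPKM with butyrate was 0.879 times that of control in WT and 1.26 times in LNCKO, so that the libraries of the genotypes moved in opposite directions by more than 1.1-fold. Prdx4, a peroxiredoxin of the ER, did the same, at 0.835 times control in WT and 1.11 times in LNCKO. With 1 library per group, the difference between genotypes was not tested for either gene.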

How the results depend on the processing

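No paired analysis was possible because each group had 1 library. The butyrate difference of Selenom in WT, 1.69 on the log2 scale, was 1.90 with a pseudocount of 0.1 and 1.93 with none, and its difference between genotypes, 1.73, was 1.94 and 1.97. The ratio without a pseudocount was chosen after seeing the data. Among the other 9 members, the count past 1.2-fold lower in WT went from 1 to 0 with a minimum mean FPKM of 5, which leaves out Txnrd1, and to 0 with scaling by the median ratio. The count higher in LNCKO under butyrate went from 1 to 0 with the same filter. The count lower in the WT less LNCKO measure went from 0 to 1 with a pseudocount of 0.1, 1 with none and 2 with FPKM rescaled to 1000000 per library. No result changed direction among called values. The genes past 1.2-fold in WT, 296 higher and 365 lower, were 149 and 158 with the stricter filter, 461 and 714 with a pseudocount of 0.1 and 486 and 788 with none. The corresponding counts were 45 to 491 higher and 20 to 572 lower in LNCKO (107 and 59 as reported), 59 to 758 and 43 to 547 between genotypes without butyrate (146 and 112), 189 to 1768 and 126 to 869 with it (421 and 284), and 145 to 1190 and 214 to 1866 for the WT less LNCKO measure (367 and 460). Past 2-fold in WT, 18 higher and 5 lower became 9 to 91 and 3 to 64. With the gene span as length, the level ranks of the 10 members stayed within a factor of 1.5 in each library, except 1 rank at 1.57. On that length Txnrd1 was the lowest of the 10 in each library, and Selenom stood above it. With 1 library per group, the spread between mice or cultures is unknown, and depth bears on Pla2g3, Dio1 and Lrp2 in particular.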
